A study of Mus musculus with 21 samples.

Results

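The Rh complex, the glycophorins and the other carriers of blood group antigens are the proteins by which the surface of a red cell is recognised. The 9 genes described here were chosen by symbol in the deposited expression tables: Rhag, Rhd, Icam4, Cd47, Gypc, Aqp1, Kel, Xk and Ermap. They are 9 of 22483 genes in the tables, and all 9 were among the 12360 with enough counts to be tested. Polyadenylated RNA was sequenced in MEDEP cells, mouse red cell precursors that can be expanded in culture and were first made from embryonic stem cells; the line was BRC5. At 0 h the cells were still growing with stem cell factor (SCF) and dexamethasone (dex), which keep such progenitors dividing. At 12, 24, 36, 48 and 72 h both had been withdrawn and erythropoietin (Epo), the hormone on which red cell precursors depend, was present at 4 U/ml. No Epo dose is listed for 0 h. All groups shared a base medium with serum, ascorbic acid and an insulin, transferrin and selenium supplement. A further group at 12 h received Epo together with succinyl acetone (SA), which blocks heme synthesis by inhibiting 5-aminolevulinate dehydratase. Each of the 7 groups held 3 libraries described as biological replicates, 21 in all. The labels carry no genotype beyond the line, and what separates the replicates of this one line is not given, so the p-values measure the spread between these cultures.

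In the red cell membrane RHAG, a channel for ammonia and gases, assembles with the Rh protein, and in human cells the Rh protein reaches the surface only with RHAG. Around this core sit ICAM4, the Landsteiner-Wiener glycoprotein that binds integrins, and CD47, the signal that holds off phagocytes through SIRPA. Glycophorin C, which carries the Gerbich antigens, ties the membrane to the spectrin skeleton through protein 4.1R and p55. KEL, an endopeptidase of the neprilysin family that can cleave big endothelin-3, is joined in human red cells by a disulfide bond to XK, a membrane protein whose loss causes McLeod syndrome. AQP1 is the water channel that carries the Colton antigens, and ERMAP is the butyrophilin-like carrier of the Scianna antigens. Mice have a single Rh gene, Rhd, where humans have the pair RHD and RHCE.

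Of the 9 genes 8 had a promoter entry in RefSeq (GRCm38.p6), and 5 of these 8, Rhag, Rhd, Kel, Icam4 and Ermap, held a GATA motif in the 250 bases before the start (AGATAA or else TGATAA, and the forms AGATAG or else TGATAG that end in another base, on either strand). Such a motif stood in 26.5% of all 32851 windows of that length. A CACCC motif (CCACCC, either strand) was in 5 of the 8, Rhag, Kel, Xk, Aqp1 and Ermap, and in 28.1% of all windows. The STAT motif TTCNNNGAA was in none of the 8 and in 7.02% of all windows. A match is a description of the letters and not of binding, and a motif that is not found says only that these letters are not in the window. The GATA match of Icam4 lies inside an exon of the GENCODE M21 annotation, as do the CACCC matches of Kel and Xk. The second of the 2 GATA matches of Kel only overlaps the edge of an exon. It is cut by the end of the sequence printed below and left in small letters. The promoters of Rhag, Rhd, Kel and Ermap are shown because they hold the motif of the erythroid factor GATA1 and belong to genes with unlike courses. They are written 5′ to 3′ on the gene's strand up to the first annotated exon, with the GATA match in capitals. Rhag is at chr17:40810899-40811125 (plus strand), Rhd at chr4:134864286-134864535 (plus), Kel at chr6:41704340-41704575 (minus) and Ermap at chr4:119190012-119190245 (minus).
Rhag: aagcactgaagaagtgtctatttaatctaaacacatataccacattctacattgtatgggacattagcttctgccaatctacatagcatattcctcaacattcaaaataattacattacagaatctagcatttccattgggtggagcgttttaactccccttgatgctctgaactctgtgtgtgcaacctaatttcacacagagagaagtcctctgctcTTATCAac
Rhd: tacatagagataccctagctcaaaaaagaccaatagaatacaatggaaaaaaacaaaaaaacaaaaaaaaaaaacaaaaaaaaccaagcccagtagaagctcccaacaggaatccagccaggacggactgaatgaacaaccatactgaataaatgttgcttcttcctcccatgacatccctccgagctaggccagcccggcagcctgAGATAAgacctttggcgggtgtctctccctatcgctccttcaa
Kel: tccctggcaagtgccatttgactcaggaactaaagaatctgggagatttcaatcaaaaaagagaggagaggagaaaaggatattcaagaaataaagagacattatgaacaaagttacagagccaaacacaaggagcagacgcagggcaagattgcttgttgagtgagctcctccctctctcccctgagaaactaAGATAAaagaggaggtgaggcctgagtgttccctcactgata
Ermap: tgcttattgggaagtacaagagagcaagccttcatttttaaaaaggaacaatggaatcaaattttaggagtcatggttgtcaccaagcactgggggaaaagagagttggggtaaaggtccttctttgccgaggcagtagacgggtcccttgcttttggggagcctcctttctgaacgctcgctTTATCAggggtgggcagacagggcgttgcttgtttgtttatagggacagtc

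Library totals lay between 16695654 and 39315974 estimated counts, and no library had fewer than 315 counts of any of the 9 genes. Globin transcripts took 35.2% of counts at 72 h, against 0.0613% at 0 h. Levels are given as CPM scaled by TMM (trimmed mean of M values), so a change says how a gene moved against the bulk of tested genes and gives no amount per cell. In bulk RNA, fewer cells of a type and less RNA per cell cannot be told apart. All 9 erythroid markers (such as Gata1, Klf1 and Slc4a1) had counts in every library. Summed markers of endothelium, a tissue that also uses Aqp1, stayed between 0.0376 and 1.98 CPM over 8 genes. The first library at 36 h stood apart in stromal markers, with 38.5 CPM over 11 genes, against 0.0660 to 1.73 CPM in the other 20 libraries.

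Most of the 9 genes rose until 36 h and then fell. On the CPM scale 7 of 9 peaked at 36 h, and the water channel Aqp1 and the integrin ligand Icam4 peaked at 24 h. All 9 varied over the course (adjusted p from 2.70e-18 for Gypc to 1.77e-10 for Icam4), as did 97.6% of all tested genes. The spans were unequal. Kel at its 36 h peak stood 19.3-fold above its 0 h mean, while Ermap, the carrier of the Scianna antigens, spanned only 2.72-fold.

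**Figure D1:**
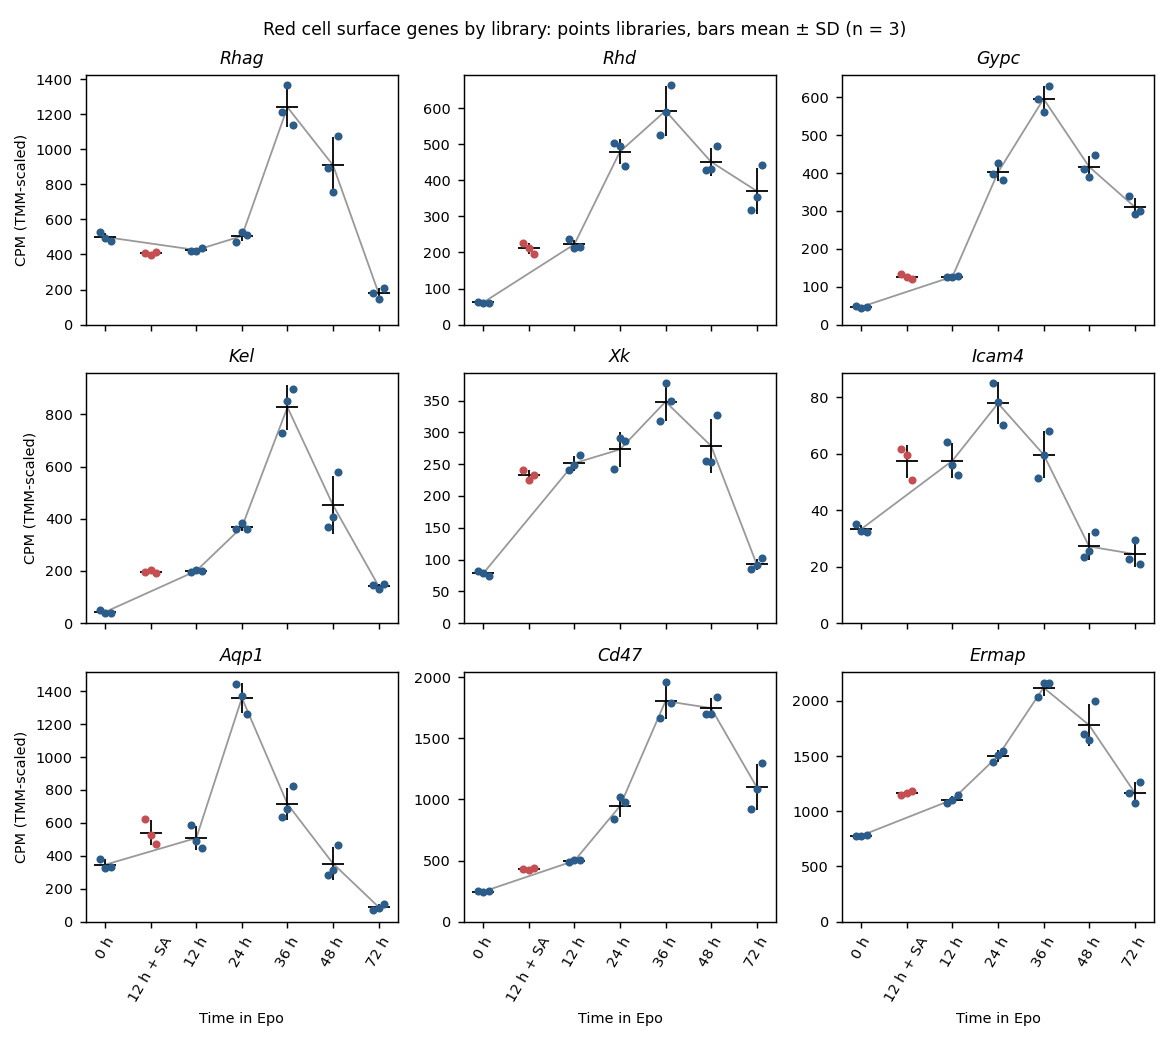
TMM-scaled CPM (y axis, linear from 0) of each gene in every library (points) by time in Epo (x axis), with mean ± SD of 3 libraries as black bars; blue is the course, joined by a grey line through its means, and red is 12 h + SA. Rhag stays near its 0 h level until 24 h and reaches 1239.6 CPM at 36 h, whereas Aqp1 and Icam4 peak at 24 h.

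Each step of the course was tested as a contrast in a single edgeR quasi-likelihood model fitted to the 21 libraries. Its p-values were adjusted by Benjamini-Hochberg across every tested gene, and 0.05 was the threshold. From 0 to 12 h, when SCF and dex were withdrawn and Epo was present afterwards, 8 of 9 genes rose, and Rhag did not pass. Over all tested genes 25.3% were called higher and 27.6% lower. In this model none was called lower, at an adjusted or an unadjusted p under 0.05, nor in DESeq2, while edgeR on the 0 h and 12 h libraries alone called 1 lower, Rhag (adjusted p = 0.00326). The endopeptidase gene Kel rose most, with 2.23 ± 0.14 on the log2 scale (± SE, 3 libraries against 3), and Ermap least, with 0.50 ± 0.081. The median change was 1.01 for the group and -0.0071 for all tested genes. The libraries did not overlap in 9 of 9, and in 67.7% of all tested genes.

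Between 12 and 24 h 7 of 9 rose, against 19.1% of all tested genes called higher and 22.0% lower. Gypc, the anchor to the skeleton, led with 1.67 ± 0.083, followed by Aqp1 with 1.42 ± 0.17. Rhag (0.25 ± 0.12, adjusted p = 0.104) and Xk (0.12 ± 0.10, adjusted p = 0.380) did not pass, and with the 12 h and 24 h libraries fitted alone Rhag did (adjusted p = 0.00339). None was called lower by this model or DESeq2, nor at an unadjusted p under 0.05. The 24 h and 12 h libraries stood apart in 8 of 9, and in 58.6% of all tested genes.

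The step from 24 to 36 h divided the group. On the CPM scale 7 of 9 rose, with Rhag now first at 1.30 ± 0.12, while Aqp1 (-0.93 ± 0.17) and Icam4 (-0.39 ± 0.13) fell. Over all tested genes 34.1% were called higher and 39.0% lower. As shares of the library, in TPM, every member fell in this step, and the median of all tested genes fell by 1.84 on the log2 scale. Relative to that median, a centring much like that of TMM, each of the 9 kept its direction. At 36 h and 24 h the libraries stood apart in 9 of 9, and in 76.2% of all tested genes. Summed markers of megakaryocytes and platelets moved in the same step, with 1111 to 1414 CPM at 36 h against 103 to 117 CPM at 24 h over 9 genes. Summed over the 3 libraries at 36 h, Itga2b had 56141 counts, Gp9 1830, Gp6 1209.6, Gp1ba 679 and Pf4 and Vwf 5 each, and Ppbp and Gp1bb had 0. The same sums at 24 h were 9395 for Itga2b, 3737 for Gp9, 60.5 for Gp6 and 1130 for Gp1ba. Such sums are raw counts without TMM scaling, so a lower sum at 36 h is not a fall in CPM. The TMM factors were 1.36, 1.32 and 1.37 at 24 h, against 0.692, 0.627 and 0.717 at 36 h. The list came to 1628 to 1745 CPM at 48 h, and its part in these steps was not tested. Without the 36 h library with stromal markers 7 genes rose and 1, Aqp1, fell, and Icam4 then had an adjusted p of 0.0691.

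From 36 to 48 h 8 of 9 fell, where 29.7% of all tested genes were called lower and 20.0% higher. Icam4 fell most, by 1.14 ± 0.14 on the log2 scale, then Aqp1 (-1.02 ± 0.17) and Kel (-0.87 ± 0.14). The phagocyte signal Cd47 was the exception, at -0.047 ± 0.10 (adjusted p = 0.733). Of the 8, 5 were called under the size factors of DESeq2 and 4 when the compared libraries were fitted alone. As shares of the library, in TPM, all 9 were called lower, Cd47 among them (-0.55, limma adjusted p = 0.0248). The median of all tested genes moved by -0.47 on that scale, and relative to it Cd47 stood at -0.079. The 48 h and 36 h libraries stood apart in 7 of 9, and in 51.4% of all tested genes. Between 48 and 72 h 8 fell again (34.5% of all tested genes lower and 24.7% higher), and here Icam4 did not pass (-0.14 ± 0.14, adjusted p = 0.399), although in TPM all 9 were called lower, Icam4 by -0.82 (limma adjusted p = 0.00203). In TPM the median of all tested genes moved by -0.45 in this step, and relative to it Icam4 stood at -0.36. Rhag fell by 2.34 ± 0.13 on the log2 scale, to 179 ± 32.2 CPM at 72 h, against 909 ± 159.7 CPM at 48 h. Aqp1 (-1.98 ± 0.18), Kel (-1.67 ± 0.14) and Xk (-1.59 ± 0.11) followed, whereas Rhd, the partner of Rhag, changed by -0.28 ± 0.11. The 72 h and 48 h libraries stood apart in 7 of 9, and in 56.0% of all tested genes. In neither step was a gene of the group called higher by this model or DESeq2, nor at an unadjusted p under 0.05.

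**Figure D2:**
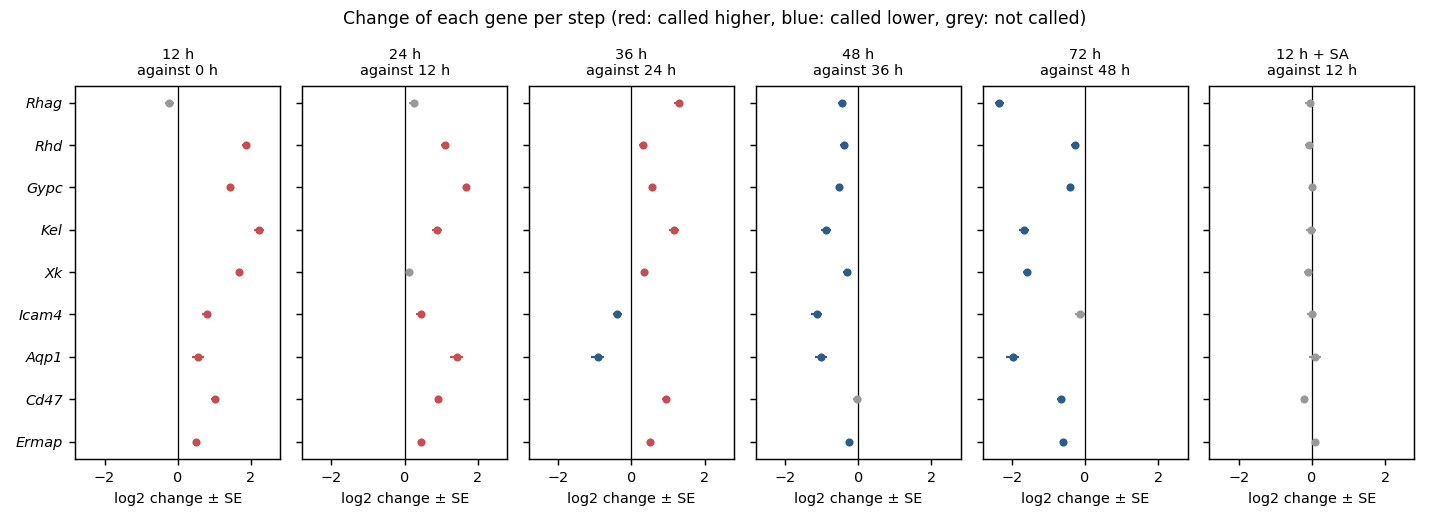
Log2 change (x axis, TMM scale) of each gene (rows) in the 5 steps of the course and in 12 h + SA against 12 h (panels); bars are ± SE and are mostly narrower than the points. Nearly all genes lie right of 0 until 24 h and left of 0 after 36 h, and none is called with SA.

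Over the whole course the group ended split. At 72 h 6 genes were above their 0 h level and 3 below it, where 43.3% of all tested genes were called higher and 46.5% lower. Gypc (2.73 ± 0.087), Rhd (2.60 ± 0.12), Cd47 (2.16 ± 0.11) and Kel (1.73 ± 0.14) ended well above. Aqp1 (-1.95 ± 0.18), Rhag (-1.48 ± 0.12) and Icam4 (-0.45 ± 0.14) ended below. Ermap was higher by 0.58 ± 0.081. The 72 h and 0 h libraries stood apart in 9 of 9, and in 89.5% of all tested genes. Xk passed narrowly (0.25 ± 0.10, adjusted p = 0.0306). With no filter on low counts it changed by 0.024 (adjusted p = 0.876). Its adjusted p was 0.210 without the third library at 72 h, 0.0714 without the second and 0.0531 to 0.155 without any one of the 0 h libraries. With the size factors of DESeq2 Icam4 was not called (adjusted p = 0.206). In TPM all 9 were lower at 72 h, with a median of -3.15 for the group and -3.26 for all tested genes. Relative to that median, again a centring much like that of TMM, the directions held except for Xk, which then stood level with it.

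Rhag (ENSMUSG00000023926, GRCm38 chromosome 17, 40811126 to 40840754, plus strand), the channel subunit of the Rh complex, was already abundant before differentiation. It had 526, 496 and 477 CPM at 0 h, 421, 419 and 435 CPM at 12 h, and 474, 531 and 510.5 CPM at 24 h. These libraries overlap between 0 h and 24 h, and the 12 h values lie below both. Later it had 1215, 1365 and 1139 CPM at 36 h, 895, 757 and 1075 CPM at 48 h, and 183, 145 and 209 CPM at 72 h. Every 36 h library exceeds every earlier one and every 72 h library is below all others. The rise at 36 h against 24 h was 2.46-fold (adjusted p = 5.72e-09), and the level at 72 h was 80.3% lower than at 48 h (adjusted p = 7.71e-12). At 12 h against 0 h it changed by -0.23 ± 0.12 (adjusted p = 0.109), and with the compared libraries fitted alone by -0.19 (adjusted p = 0.00326). At 24 h against 12 h the fit of those libraries alone gave 0.25 (adjusted p = 0.00339).

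Rhd (ENSMUSG00000028825, chromosome 4, 134864536 to 134896172, plus strand), the Rh protein itself, started low and rose early. Its libraries had 63.5, 60.05 and 60.3 CPM at 0 h, 238, 214 and 216 CPM at 12 h, and 504, 495 and 439 CPM at 24 h. No library overlaps between these times. The change was 3.63-fold at 12 h against 0 h (adjusted p = 2.36e-11) and 2.15-fold at 24 h against 12 h (adjusted p = 1.50e-07). Afterwards the values were 526, 589 and 663 CPM at 36 h, 428, 430.3 and 495 CPM at 48 h, and 316, 354 and 441 CPM at 72 h. The 72 h libraries overlap those at 48 h, and Rhd kept 62.5% of its peak mean at 72 h, where Rhag kept 14.4%. The late steps of Rhd were small. With no filter on low counts its rise at 36 h against 24 h was 0.21 (adjusted p = 0.108). It was also not called without the third library at 24 h (adjusted p = 0.1005) or at 36 h (0.123), and the fall at 72 h not without the third at 48 h (0.117) or the first (0.165) or second (0.0862) at 72 h.

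The balance of both partners turned round. Taken within a library the TPM ratio of Rhag to Rhd does not depend on how libraries are scaled. It began with 6.92, 6.85 and 6.55 at 0 h, then 1.45, 1.63 and 1.66 at 12 h and 0.748, 0.882 and 0.945 at 24 h. By TPM, which corrects for length, transcripts of Rhag were fewer than those of Rhd in all 3 libraries at 24 h. They outnumbered those of Rhd in all 3 at 12 h and at 0 h. The crossing at 24 h rests on that correction. In estimated counts Rhag then had 24188, 23479 and 16370, against 25764, 21891 and 14084 for Rhd. The ratio was then 1.62 ± 0.260 at 36 h and 1.53 ± 0.190 at 48 h (mean and SD of 3 libraries), above 1 in every library. At 72 h it was 0.420, 0.290 and 0.353, the lowest of any time, with no overlap with another group. At 12 h + SA it was 1.60 ± 0.123, against 1.58 ± 0.113 at 12 h.

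**Figure D3:**
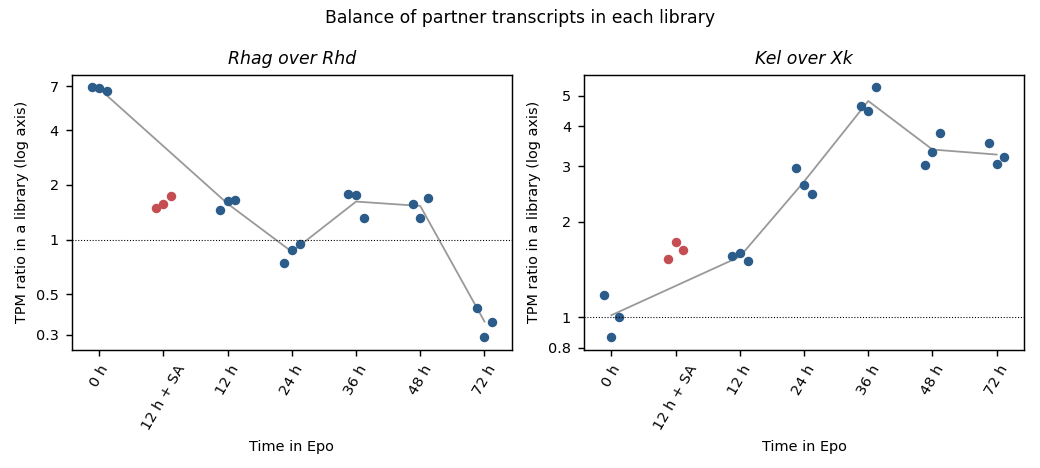
TPM of Rhag over Rhd (left) and of Kel over Xk (right) in each library (points, log y axis) by time in Epo (x axis); grey lines join the means of the course, red is 12 h + SA and the dotted line marks equal levels. Rhag over Rhd is 0.354 ± 0.0646 at 72 h, against 6.78 ± 0.199 at 0 h, and Kel over Xk is highest at 36 h.

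Cd47 (ENSMUSG00000055447, chromosome 16, 49800533 to 49915010, plus strand), which tells phagocytes to spare a cell, rose at each of the first 3 steps and fell in the last. Early values were 248, 243 and 249.6 CPM at 0 h, 485, 508 and 501 CPM at 12 h, and 841, 1016 and 979.7 CPM at 24 h, with no overlap between times. Its later libraries had 1663, 1960.0 and 1793 CPM at 36 h, 1701, 1702 and 1840.2 CPM at 48 h, and 919, 1089.6 and 1296 CPM at 72 h. The 48 h and 36 h values overlap, and those at 72 h are lower than both. The change at 12 h against 0 h was 2.02-fold (adjusted p = 4.82e-08) and at 36 h against 24 h 1.91-fold (adjusted p = 6.24e-08). Per length, Cd47 was the most abundant of the 9 at 24, 36, 48 and 72 h, with 984 ± 80.7, 613 ± 20.3, 429 ± 124 and 179 ± 63.5 TPM in that order (mean and SD of 3 libraries). Set against Cd47, Rhag had a TPM ratio of 1.79 ± 0.0867 at 0 h, 0.498 ± 0.0184 at 24 h and 0.0828 ± 0.0171 at 72 h. Transcripts of Sirpa, the receptor of CD47 on phagocytes, were too few to be tested in these cells.

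Icam4 (ENSMUSG00000001014, chromosome 9, 21029373 to 21030595, plus strand), the integrin ligand of the complex, had the lowest CPM of the group at every time. CPM is not corrected for length. In TPM Icam4 ranked 6 among the 9 at 0 h, with 82.3 TPM, and was last only at 36 and 48 h, where Xk was last at the other times of the course. Icam4 had 35.0, 32.7 and 32.4 CPM at 0 h, 64.3, 55.9 and 52.4 CPM at 12 h, and 85.0, 78.5 and 70.1 CPM at 24 h. The libraries at 12 h are above those at 0 h and below those at 24 h. From 36 h the values were 51.3, 59.6 and 68.2 CPM at 36 h, 23.6, 25.5 and 32.4 CPM at 48 h, and 22.8, 29.5 and 21.03 CPM at 72 h. Those at 36 h overlap 12 h, and the 48 h and 72 h values overlap each other. The change at 12 h against 0 h was 0.79 ± 0.13 (adjusted p = 3.26e-05) and at 48 h against 36 h -1.14 ± 0.14 (adjusted p = 1.31e-06). Its rise at 24 h was not called without the first library at 24 h (adjusted p = 0.0538) or the third at 12 h (0.0571), nor its fall at 36 h without the first at 24 h (0.0523) or the first at 36 h (0.0691). An annotated antisense gene, Gm47079, covers Icam4 on the other strand; the libraries are strand specific, but whether counting used the strand is not given in the sources used here.

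Gypc (ENSMUSG00000090523, chromosome 18, 32528322 to 32560034, minus strand), the glycophorin that docks on protein 4.1R, had a course close to that of Rhd. Its libraries had 50.2, 44.3 and 45.9 CPM at 0 h, 127, 124 and 128 CPM at 12 h, and 397, 427 and 382 CPM at 24 h, without overlap. Later values were 595, 562 and 631 CPM at 36 h, 412, 389.8 and 448 CPM at 48 h, and 338, 292 and 301 CPM at 72 h, each time again apart from the one before. The changes were 2.70-fold at 12 h against 0 h (adjusted p = 9.98e-12), 3.18-fold at 24 h against 12 h (adjusted p = 1.99e-11) and 6.64-fold at 72 h against 0 h (adjusted p = 3.62e-17). The last is the largest of the 9 genes over the whole course. Among the 9, Gypc and Rhd were the most alike pair of profiles, with a root mean square difference of 0.286 in log2 CPM over 7 group means centred on each gene's own mean. When the compared libraries were fitted alone, the fall of Gypc at 72 h against 48 h had an adjusted p of 0.0647.

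Aqp1 (ENSMUSG00000004655, chromosome 6, 55336432 to 55348555, plus strand), the water channel, peaked at 24 h and ended lowest against its start. It had 384, 323 and 331 CPM at 0 h, 587, 489.8 and 449 CPM at 12 h, and 1442, 1373 and 1263 CPM at 24 h. The 24 h libraries exceed all others in the series. It then had 636, 686 and 822 CPM at 36 h, 282, 312 and 465 CPM at 48 h, and 73.8, 84.8 and 109 CPM at 72 h, falling without overlap at every step. The rise at 24 h against 12 h was 2.67-fold (adjusted p = 1.57e-06), and the level at 36 h was 47.4% lower than at 24 h (adjusted p = 5.25e-05). At 12 h against 0 h the change was 0.55 ± 0.17 (adjusted p = 0.00857), which was not called without the first library at 12 h (adjusted p = 0.0544). Aqp1 and Gypc were the least alike pair. The TPM of Aqp1 over Gypc came to 5.10 ± 0.151 at 0 h, 2.31 ± 0.192 at 24 h, 0.803 ± 0.0831 at 36 h and, last, 0.193 ± 0.0463 at 72 h (mean and SD of 3 libraries).

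Kel (ENSMUSG00000029866, chromosome 6, 41686330 to 41704339, minus strand), the endopeptidase of the Kell complex, had 51.9, 37.4 and 39.1 CPM at 0 h, 195, 205 and 201 CPM at 12 h, and 359.9, 384 and 360.2 CPM at 24 h. The times do not overlap, and Kel had the largest rise of the group in the first 12 h, 4.68-fold (adjusted p = 4.33e-11). Later it had 730.1, 852 and 899 CPM at 36 h, 369.7, 407 and 579 CPM at 48 h, and 146, 131 and 149.6 CPM at 72 h. Its 36 h libraries are above all others, and the 72 h values are below those at 12 h. The change was 2.25-fold at 36 h against 24 h (adjusted p = 1.50e-07), and the level at 72 h was 68.6% lower than at 48 h (adjusted p = 2.75e-09). Edn3, the gene of its substrate endothelin-3, was listed at 0 TPM in every library.

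Xk (ENSMUSG00000015342, chromosome X, 9272756 to 9313250, plus strand), the protein to which KEL is bound, rose most in the first step and fell most in the last. It had 81.8, 78.8 and 74.1 CPM at 0 h, 241, 249 and 264 CPM at 12 h, and 242, 291 and 286 CPM at 24 h. The 12 h libraries are all above 0 h (3.22-fold, adjusted p = 3.18e-11), and those at 24 h overlap 12 h. From 36 h on it had 318, 377 and 349.5 CPM at 36 h, 256, 253 and 327 CPM at 48 h, and 84.7, 91.9 and 102 CPM at 72 h. The 48 h values overlap those at 36 h, and the 72 h values stand just above 0 h. The change at 48 h against 36 h (-0.32 ± 0.10, adjusted p = 0.0128) was not called without the second library at 36 h (adjusted p = 0.0534) or the first (0.0599) or second (0.0592) at 48 h. The histone gene H2al1m lies within Xk on the same strand, with at most 7.93 TPM in a library.

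The levels of Kel and Xk parted over the course. Their TPM ratio began with 1.18, 0.863 and 1.00 at 0 h, then 1.56, 1.60 and 1.499 at 12 h and 2.97, 2.61 and 2.46 at 24 h. Both were about equal at the start and no library overlaps between these times. It was highest at 36 h, with 4.64, 4.48 and 5.33, and then 3.38 ± 0.395 at 48 h and 3.26 ± 0.251 at 72 h (mean and SD of 3 libraries). At 12 h + SA it was 1.63 ± 0.101, against 1.55 ± 0.0502 at 12 h. Vps13a, whose product binds XK in human cells and which was picked for that role after its values were seen, changed by -0.19 ± 0.12 at 12 h against 0 h (adjusted p = 0.226) and by -0.34 ± 0.13 at 36 h against 24 h (adjusted p = 0.0201).

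Ermap (ENSMUSG00000028644, chromosome 4, 119175457 to 119190011, minus strand), an adhesion-like receptor of the erythroid lineage, was high from the start and changed least. It had 779, 776 and 785 CPM at 0 h, 1072, 1101 and 1144 CPM at 12 h, and 1442, 1510.5 and 1549 CPM at 24 h. Its replicates lie close together and the times do not overlap. Afterwards it had 2035, 2158 and 2166 CPM at 36 h, 1697, 1645 and 1998 CPM at 48 h, and 1162, 1078 and 1266 CPM at 72 h. The 36 h libraries are the highest, and the 72 h values overlap those at 12 h. The changes were 0.50 ± 0.081, 0.44 ± 0.081 and 0.50 ± 0.081 in the first 3 steps (adjusted p = 2.17e-05, 1.80e-04 and 1.28e-05). The fall at 48 h against 36 h (-0.25 ± 0.081, adjusted p = 0.0132) was not called without the second library at 48 h (adjusted p = 0.0571).

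Per length and as shares of each library, the 9 genes together took 2109 ± 56.3 TPM at 0 h, 4668 ± 26.4 TPM at 24 h and, with the spread given as SD over 3 libraries, 351 ± 121 TPM at 72 h. On this scale 7 of 9 peaked at 24 h, Xk at 12 h and Rhag at 0 h. At 0 h Rhag was the most abundant, with 627 ± 17.8 TPM, followed by Ermap with 527 ± 15.3 TPM, and Xk the least with 43.6 ± 1.06 TPM, next to Kel with 44.3 ± 7.74 TPM. At 72 h the order was Cd47 with 179 ± 63.5 TPM, Ermap with 61.4 ± 20.99 TPM and Rhd with 41.9 ± 15.6 TPM, and Xk again stood last with 3.78 ± 1.24 TPM. Rhag then had 15.2 ± 6.65 TPM.

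**Figure D4:**
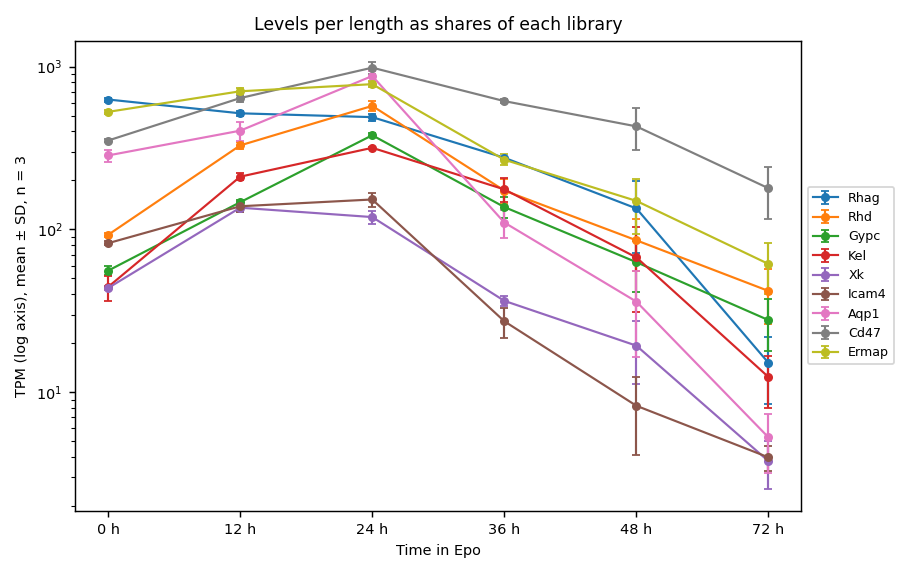
TPM (y axis, log scale; mean ± SD of 3 libraries) of the 9 genes against time in Epo (x axis). Cd47 stays highest from 24 h on, and Rhag has 15.2 TPM at 72 h, against 627 TPM at 0 h.

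The cultures with SA compare 12 h in Epo with and without this inhibitor of heme synthesis, and heme itself was not measured in these data. None of the 9 was called in either direction by edgeR (adjusted p from 0.837), at an unadjusted p under 0.05, or by DESeq2. Over all tested genes 0.0162% were called higher and 0.364% lower. Kel had 196, 202 and 192 CPM at 12 h + SA, against 195, 205 and 201 CPM at 12 h, which overlap. The log2 difference was -0.026 ± 0.13, with an approximate 95% interval of -0.31 to 0.26 (SE and 14 residual degrees of freedom). Rhag had 407, 399.7 and 411 CPM at 12 h + SA, against 421, 419 and 435 CPM at 12 h, without overlap. Its difference was -0.067 ± 0.12, with an interval of -0.32 to 0.19. The largest difference was that of Cd47, with 434, 419.7 and 442 CPM at 12 h + SA, against 485, 508 and 501 CPM at 12 h. It came to -0.21 ± 0.10 (adjusted p = 0.837, interval -0.42 to 0.011), and the compared libraries fitted alone called it (adjusted p = 0.0202). In that fit the share of all tested genes called was not counted. Rhd had 225, 212 and 196 CPM at 12 h + SA, against 238, 214 and 216 CPM at 12 h. Ermap had 1144, 1168 and 1180.3 CPM at 12 h + SA, against 1072, 1101 and 1144 CPM at 12 h. Xk had 240.1, 226 and 234 CPM at 12 h + SA, against 241, 249 and 264 CPM at 12 h. The low-count Icam4 had 61.6, 59.7 and 50.5 CPM at 12 h + SA, against 64.3, 55.9 and 52.4 CPM at 12 h. The libraries of Xk and Ermap stood apart by narrow margins, and those of Rhd and Icam4 overlapped. Gypc and Aqp1 differed by -0.0042 ± 0.081 and 0.089 ± 0.17. For Gypc, Icam4, Rhd, Xk, Aqp1 and Ermap the intervals lay between -0.33 and 0.45. A test that misses the threshold does not show equal levels. In 4 of 9 the libraries did not overlap, as in 24.2% of all tested genes.

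Ordering the 7 groups by mean CPM gives 6 neighbouring pairs per gene, 54 in all, of which 34 differed (adjusted p at most 0.05), where 68.9% of all gene and pair combinations did. Neighbours stand close by construction, so this is no measure of how variable the genes are. Of the 20 pairs that did not pass, 9 were 12 h with and without SA, in every gene. Rhag could not be ordered among 12 h, 0 h and 24 h in this model (adjusted p = 0.109 and 0.924), although the compared libraries alone set 12 h below 0 h and below 24 h (0.00326 and 0.00339). Nor could Xk be ordered among 12 h, 24 h and 48 h (0.380 and 0.807). Rhd and Gypc did not separate 48 h from 24 h (0.464 and 0.564), Aqp1 did not separate 48 h from 0 h (0.880), and Icam4 did not separate 72 h from 48 h (0.399) or 36 h from 12 h (0.729). Cd47 had 48 h beside 36 h (0.733), and Ermap 72 h beside 12 h + SA (0.951).

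The profiles of other genes most like each member were found by the root mean square difference in log2 CPM over the 7 group means, each gene centred, among 8990 genes whose mean count was 100 or more. Kel lay closest to Ank1 (0.140), the gene of ankyrin that holds band 3 to the skeleton, and to Slc16a6 (0.144) and H1f0 (0.174). Near Aqp1 lay E2f7 (0.163) and Ccna2 (0.187), both genes of the cell cycle. Rhag had Lrrc1 (0.249), Itga4 (0.263), an integrin subunit, and Rbl2 (0.265), at greater distances than the first neighbour of any other member. Rhd had Ptdss2 (0.114), Fn3krp (0.129) and Narf (0.142). Gypc had Mgst3 (0.195), Atg4d (0.244) and Slc43a1 (0.252). Cd47 had Mindy2 (0.122), Kctd9 (0.150) and Smap1 (0.157), and Xk had Brpf3 (0.171), Cep164 (0.199) and Fntb (0.202). Icam4 had Ndufaf3 (0.121), Ccdc82 (0.140) and Kcnn4 (0.146), and Ermap had Fam160b2 (0.0914), Bloc1s1 (0.0947) and Ndufs4 (0.0966). Genes with a small span find close neighbours easily, and the members spanned 1.44 (Ermap) to 4.27 (Kel) on the log2 scale.

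A list of 30 other genes of blood group systems and related membrane proteins had 22 with enough counts to be tested, among them Slc4a1 (band 3, the anion exchanger) and Ackr1 (the Duffy receptor). At 12 h against 0 h 14 rose and 4 fell (25.3% and 27.6% of all tested genes), with a median log2 change of 0.99 (-0.0071 for all tested genes). Slc4a1 led with 7.33 ± 0.19, then Ackr1 with 4.57 ± 0.22, while the nucleoside transporter Slc29a1 (-0.66 ± 0.14) and the exporter Abcc4 (-0.66 ± 0.14) fell. At 24 h against 12 h 8 rose and 6 fell (19.1% and 22.0% of all tested genes), with the adhesion receptor Cd44 at -1.08 ± 0.13. At 36 h against 24 h 8 rose and 7 fell (34.1% and 39.0% of all tested genes), with Smim1, the carrier of the Vel antigen, at -1.60 ± 0.11. At 48 h against 36 h 2 rose and 9 fell (20.0% and 29.7% of all tested genes), and the exporter Abcg2, which carries the Junior antigen, changed by -1.06 ± 0.11. At 72 h against 48 h 4 rose and 13 fell (24.7% and 34.5% of all tested genes), with Abcg2 again at -2.09 ± 0.11 and the urea channel Slc14a1, which carries the Kidd antigens, at -1.61 ± 0.16. Over the whole course 10 were higher and 11 lower at 72 h than at 0 h (43.3% and 46.5% of all tested genes). The kidney relatives of Rhag, Rhbg and Rhcg, had too few counts to be tested. With SA the lowest adjusted p among the 22 was 0.166.

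Anchors and partners of the surface proteins formed a second list of 15 with 13 tested. At 12 h against 0 h 10 rose and the other 3 did not pass (25.3% of all tested genes rose), led by Dmtn (3.80 ± 0.11) and Epb42, protein 4.2 (2.89 ± 0.10). At 24 h against 12 h 9 rose and 3 fell (19.1% and 22.0% of all tested genes), with Mpp1, the gene of p55, among those that fell (-0.63 ± 0.14). At 36 h against 24 h 9 rose and 3 fell (34.1% and 39.0% of all tested genes), and here the docking partners of glycophorin C led, with Epb41, protein 4.1R, at 3.56 ± 0.17 and Mpp1, p55, at 2.30 ± 0.15, beside 0.57 ± 0.081 for Gypc itself. Epb41 had 9857 ± 1219 CPM at 36 h, against 837 ± 55.8 CPM at 24 h. In TPM this step changed Epb41 by 1.58 and Mpp1 by 0.28 (limma adjusted p = 1.35e-08 and 0.135), beside -1.47 for Gypc. At 48 h against 36 h 2 rose, Epb41 and Epb42, and 8 fell (20.0% and 29.7% of all tested genes). At 72 h against 48 h 1 rose and 8 fell (24.7% and 34.5% of all tested genes), with Ank1 at -1.94 ± 0.086 and the integrin subunit Itga4 at -1.84 ± 0.11. At 72 h 9 were above and 4 below their 0 h level (43.3% and 46.5% of all tested genes), with Epb41 at 6.38 ± 0.19 and Itgb1 at -2.34 ± 0.10. With SA the lowest adjusted p among the 13 was 0.193.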

How the data were processed

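The deposited data are 2 tables of 22483 genes in 21 strand-specific libraries of polyadenylated RNA: estimated counts and TPM (which corrects for length), both made by the authors. The submitters' processing notes name kallisto, DESeq2 and STAR 2.5.3a with the builds GRCm38.p5 and mm10, and which tool made which deposited count or TPM table, and whether counting used the strand, is not given in the sources used here. Of all count values, zeros included, 78.5% were whole within 1e-06, and all were rounded. Genes were filtered with edgeR 4.0.16 (filterByExpr, minimum count 10) in R 4.3.3, which kept 12360, and scaled by TMM (factors 0.423 to 1.70). A quasi-likelihood model with a mean per group over all libraries gave every contrast, with 2-sided p-values adjusted by Benjamini-Hochberg and SE taken as the log2 change over the square root of F. TPM were also tested with limma 3.58.1 on log2(TPM + 1), keeping genes that averaged 1 TPM or more (in the alternative without that filter, above 0 in 3 libraries or more).

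Alternatives were DESeq2 1.42.0 as a test and its size factors in edgeR, scaling without 10 globin genes, no count filter, the compared libraries alone, the replicate number as a block, TPM with other settings, and leaving out each library. The labels number the replicates 1 to 3 in every group without saying what a number shares. Deviations from the group means of same-numbered libraries correlated above 0.1 for every number in 5 of the 7 comparisons (lowest r from 0.144 at 12 h against 0 h to 0.424 at 12 h + SA against 12 h). They did not at 36 h against 24 h (lowest 0.0211) or at 72 h against 0 h (lowest -0.0575). The 21 pairs of replicates differed by more than sampling noise (chi-square per gene 6.63 to 272), so each library counts as 1 sample. The edgeR script was checked on simulated counts with known changes, which are not reported.

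The members, the lists of related genes and the marker lists were chosen with earlier results of these data known. Named genes were all members, the 3 closest profiles of each, and up to 2 called genes with the largest change in each direction of each related list and comparison, of which those with few counts (Emp3 and Xkr8) and some repeats are not described. Some genes that this rule names are not reported here. Epb41 in its CPM, Mpp1 at 24 h against 12 h, Vps13a, Edn3, Sirpa, Rhbg and Rhcg were singled out after their values were seen. Gene positions are those of GENCODE M21 (GRCm38), to which the identifiers of Rhag and Cd47 matched only without their version number, and promoters those of RefSeq (GRCm38.p6).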

Additional observations from a re-analysis of the deposited data

How the results depend on the processing

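Over the 378 changes of the 9 genes refitted on counts under 6 settings, 355 kept their direction and side of the threshold. The fit with the replicate block, which takes same-numbered libraries as a pair, kept 63 of 63, as did scaling without globin genes, and at 12 h against 0 h the block gave Kel 2.22. At 48 h against 36 h 5 genes were lower under the size factors of DESeq2 and 4 with the compared libraries alone, against 8, and Cd47 changed sign, to 0.081 under those size factors and in DESeq2, 0.018 with the compared libraries alone and 0.0098 without the second library at 36 h (-0.11 without the first). Rhd, Xk and Ermap lost their call there under those size factors, and Rhd also lost it at 72 h against 48 h. Fitting the compared libraries alone called 1 gene lower at 12 h against 0 h (Rhag), 1 with SA (Cd47), and Rhag also higher at 24 h against 12 h (0.25, adjusted p = 0.00339). The share of all tested genes called was not counted in those fits, so these calls have no background beside them. With no count filter Rhd at 36 h against 24 h (0.21, adjusted p = 0.108) and Xk at 72 h against 0 h (0.024, adjusted p = 0.876) were not called. The cause was not tested.

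The 3 fits on TPM, which measure shares of a library, gave 6 higher at 12 h against 0 h (not Aqp1 or Ermap), 4 higher at 24 h against 12 h, 0 higher and 9 lower at 36 h against 24 h, 9 lower at 48 h against 36 h, likewise 9 lower for 72 h against 48 h, and 0 higher and 9 lower at 72 h against 0 h. The first value of each gene is with a pseudocount of 1, with or without the filter on low means, and a second is with 0.1 where it differs. At 24 h against 12 h these fits gave Rhag -0.078, and Xk -0.19. At 36 h against 24 h they gave Rhag -0.82 and -0.83, Rhd -1.73 and -1.74, Gypc -1.47, Kel -0.86, Xk -1.68 and -1.70, Cd47 -0.68, and Ermap -1.54. At 72 h against 0 h they gave Rhd -1.19 and -1.21, Gypc -1.05 and -1.07, Kel -1.80 and -1.89, Xk -3.26 and -3.55, Cd47 -1.03 and -1.04, and Ermap -3.15 and -3.17. With SA they gave Gypc 0.018 and Icam4 0.011. The median of all tested genes moved by -1.84 at 36 h and -3.26 at 72 h against 0 h on that scale, and relative to the median of each comparison 48 of 49 called changes kept their sign.

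Leaving out 1 library in turn, 352 of 378 changes kept direction and side. The counts ran 7 to 8 higher at 12 h against 0 h, 6 to 7 higher at 24 h against 12 h, 6 to 7 higher and 1 to 2 lower at 36 h against 24 h, 6 to 8 lower at 48 h against 36 h, 7 to 8 lower at 72 h against 48 h, and 5 to 6 higher with 3 lower at 72 h against 0 h. Of the neighbouring pairs 29 to 32 passed, against 34. With SA the sign turned for Icam4 (-0.072 without the third library at 12 h) without the first library at 12 h (0.081) or the third with SA (0.075), for Gypc (-0.043 without the first with SA) without the third at 12 h (0.0055) or the second (0.0013) or the third (0.027) with SA, and for Aqp1 (0.20 without the first at 12 h) without the first with SA (-0.027). With 3 libraries a group, small changes such as those of Xk, Rhd and Icam4 stand at the limit of what these data resolve.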
